A study of Gallus gallus with 6 samples.

Results

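Mix 4 is a pool of chicken tissues whose content the labels do not give. It was taken as the array titled mix 4, set against the arrays titled mix 1, mix 2 and mix 3, and it is 1 of 6 arrays in the series, which also holds adipose tissue (1 array) and liver (1 array). Each array carries total RNA from male Arbor Acres chickens, which are bred for meat, aged 49 days, untreated and kept on a commercial feed. Per the labels 21 tissues were taken at slaughter, and the labels neither say which of them went into which mix or in what shares, nor how many birds were used. With no named tissue there was no label for mix 4 to be checked against, so its genes were read against lists of genes known from single tissues or cell types. The lists were chosen with earlier results of these data known, so their counts describe these arrays and are not independent support for a tissue.

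Many genes are used by a few cell types and hardly at all by others: neurons carry the proteins of the synapse, striated muscle the proteins of the contractile filaments, lymphocytes the parts of their antigen receptors and the gut lining the digestive enzymes of its brush border. In a pool of tissues, the signal of such genes follows how much RNA of that cell type went in. Fewer cells of a type, less RNA per cell and a smaller amount of a tissue pooled cannot be told apart in such samples.

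Values are relative signals: the deposited intensity divided by the trimmed mean of its array and multiplied by 100, so that 100 is an average probe set of that array. A probe set is a group of probes that measures 1 transcript, and for a gene with several the brightest over the 4 mixes was used. Relative signals under 8.41, the pooled 25th percentile, are near the background. Of 38439 probe sets, 24118 were brighter than 27.8, the pooled median, on at least 1 mix and were tested; these stand for 11221 genes. A gene that passed this filter through mix 4 alone had to be higher there, so the counts below describe these arrays.

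Mix 4 stood apart more than any other mix on the high side. In all 325 genes were at least 4-fold above the highest of mixes 1 to 3 on mix 4, against 222, 133 and 111 genes for mixes 1, 2 and 3 when each was set against its own 3 others. On the low side the order differed: 15 genes were at least 4-fold below the lowest of the other mixes on mix 4, against 56, 8 and 53 on mixes 1, 2 and 3. These 325 and 15 genes are 2.9% and 0.134% of the genes tested, and 648 and 23 probe sets are 2.69% and 0.0954% of the probe sets tested. Without mix 2 the counts of probe sets were 1086 above and 51 below, without mix 3 there were 289 below and without mix 1 there were 36 below. Mix 4 lay above all 3 other mixes at 2717 genes (24.2%) and 5633 probe sets (23.4%), and below all 3 at 3172 genes (28.3%) and 7069 probe sets (29.3%). That split depends on the scaling: with the deposited values as they stand 9358 probe sets lay above and 3325 below, and with scaling to the spiked-in controls 9739 above and 3188 below, where the median difference of the probe sets tested was 0.20 or 0.22 on the log2 scale in place of -0.09.

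No probe set passed the test across all probe sets. With limma, 0 of 24118 (0%) reached an adjusted p under 0.05, the smallest adjusted p was 0.178, and 1847 had an unadjusted p under 0.05, of which 1426 were higher and 421 lower on mix 4. With values floored at the pooled median limma did call probe sets. In that setting a probe set under the floor on mixes 1 to 3 has 1 value for all 3 and no spread of its own, so these calls were not read. Mix 4 is a lone array set against 3 pools of different make-up, so the spread in that test is the spread among pools and not that among repeats of mix 4. The smallest p an exact permutation test allows here is 0.25 (one-sided) or 0.5 (two-sided). The values that follow are therefore given as levels on each array, with the size of the gap and no call.

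**Figure D1:**
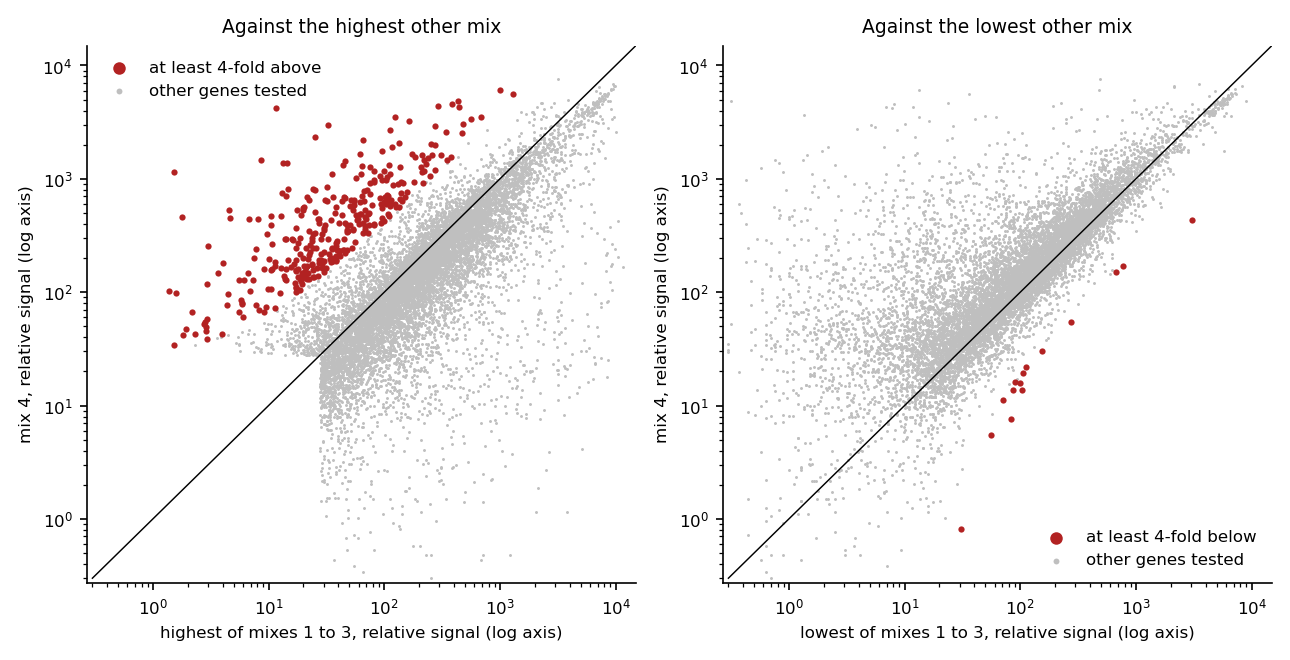
Each grey point is 1 of 11221 genes tested, with its relative signal on mix 4 (vertical, log axis) against the highest (left) or lowest (right) of mixes 1 to 3 (horizontal, log axis); the line marks equal signal and the lowest values are drawn at the edge. The red points are the 325 genes at least 4-fold above all 3 other mixes and the 15 genes at least 4-fold below them; the edge on the left comes from the filter at 27.8.

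The widest gaps above the other mixes belonged to genes of neurons. SNAP25, a protein of the presynaptic membrane that helps vesicles fuse, had a relative signal of 4240 on mix 4, against 10.4, 11.7 and 7.71 on mixes 1, 2 and 3. Its log2 difference was 7.86 ± 0.39 (SE; limma adjusted p = 0.178), and all 5 of its probe sets that were tested were above the other mixes. GRIN1, the subunit that every NMDA-type glutamate receptor needs, had 1157 on mix 4, against 1.53, 1.08 and 0.892 on mixes 1, 2 and 3. The 3 other mixes were under 27.8 for both genes, as were adipose tissue (5.17 and 0.488) and liver (16.3 and 1.12).

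The next widest gaps belonged to genes of neurons, of myelin and of other roles. SYP, a protein of the synaptic vesicle membrane, had 1454 on mix 4, against 8.66, 0.759 and 1.34 on mixes 1, 2 and 3. GPM6A, a membrane glycoprotein of neurons, had 2981 on mix 4, against 6.97, 32.6 and 5.09. MBP, which compacts the myelin sheath made by oligodendrocytes and Schwann cells, had 2333 on mix 4, against 25.1, 12.2 and 16.5. In each of the 3 no other mix exceeded 32.6, while adipose tissue had 200 for MBP. RPRM, which in human cells is known as a brake on cell division, had 1388 on mix 4, against 13.3, 0.823 and 8.79. HMP19, a protein of neuronal endosomes, had 1375 on mix 4, against 14, 14.3 and 13.3, so that mixes 1 to 3 were almost level. SYN2, which tethers synaptic vesicles, had 465 on mix 4, against 1.27, 1.01 and 1.78.

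The remaining 7 of the 15 widest gaps ran from a margin of 5.37 down to 4.9 on the log2 scale over the highest other mix. They were GPR22 (528 on mix 4), a receptor without a known ligand; SCN2A (818), a sodium channel that carries the action potential; ST8SIA3 (751), an enzyme that adds sialic acid; NEFM (452), a subunit of neurofilaments; SYT1 (707), the calcium sensor of vesicle release; CAMK2A (2210), a kinase of the synapse; and STMN3 (444), a regulator of microtubules in neurons. On mixes 1, 2 and 3 their highest signal was 65.4, that of CAMK2A on mix 2. Among the 325 genes 42 were at least 16-fold and 6 at least 64-fold above the highest other mix, and 290 were also at least 4-fold above both adipose tissue and liver. Where several probe sets of a gene were tested (168 genes), all lay above the other mixes for 147 and at least 1 lay below them for 4. The edge of the group was not a gap in the data: RAB41 was just inside it with a margin of 2.006 and EDIL3 just outside with 1.996.

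**Figure D2:**
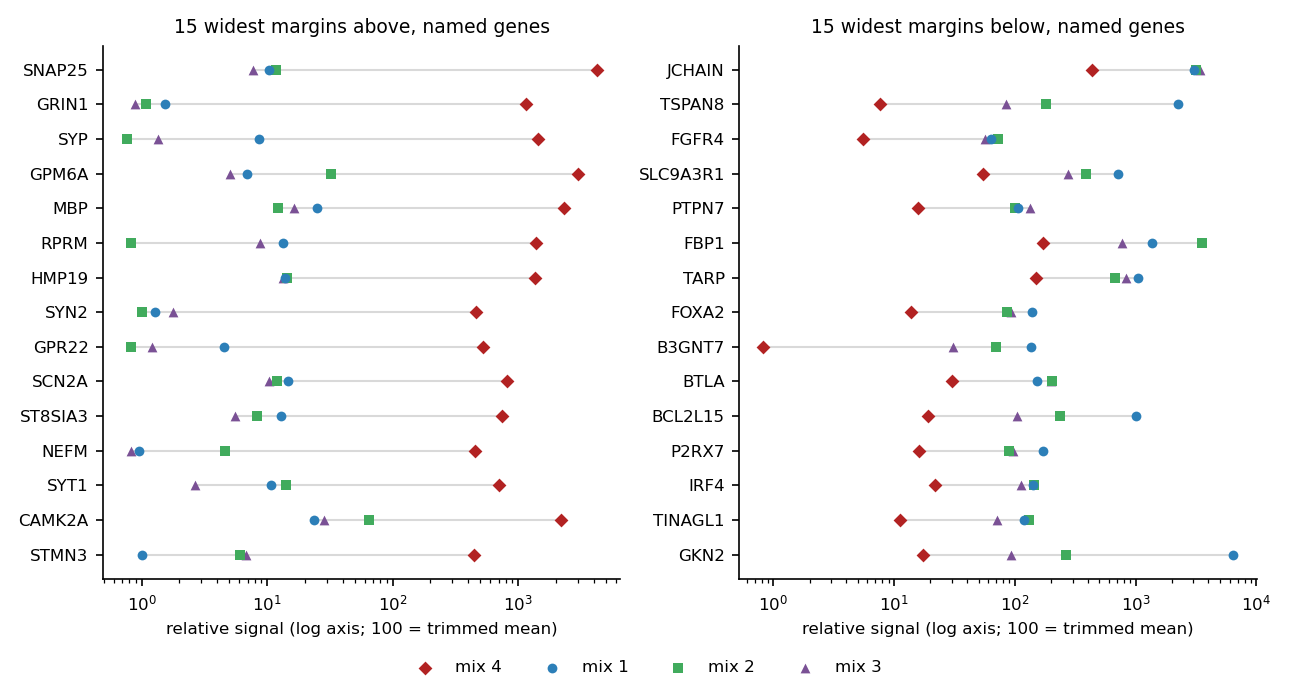
Relative signal (log axis; 100 is the trimmed mean of the array) of the 15 named genes with the widest margin above (left) and below (right) the other mixes, leaving out genes known by a locus number only, 1 row a gene, with mix 4 as diamonds, mix 1 as circles, mix 2 as squares and mix 3 as triangles. On the left mix 4 lies between 444 and 4240 while mixes 1 to 3 are under 100. On the right the margins are narrower. There mixes 1 to 3 lie close together for some genes, such as JCHAIN, and far apart for others, such as TSPAN8 and GKN2.

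Of 34 genes found of the list for neuron and synapse, 32 were tested and 31 of these lay above all 3 other mixes, 22 of them at least 4-fold, against 24.2% and 2.9% of all genes. Several of the 31, such as SNAP25, SYP, SYT1, SYN2 and NEFM, passed the filter through mix 4 alone, so their place above was fixed. The median relative signal of the 34 genes was 402 on mix 4, against 19.5, 23.1 and 15.4 on mixes 1, 2 and 3, and 10.9 in adipose tissue and 12.9 in liver. Their median log2 difference was 3.14, against -0.07 over all genes tested, and stayed between 2.76 and 3.57 over the other scalings, pseudocounts and filters and the mean over all probe sets of a gene. VSNL1, a calcium-binding protein of neurons, had 3512 on mix 4, against 13.2, 124 and 29.3. STMN2, a microtubule regulator of growing axons, had 2686 on mix 4, against 111, 51.9 and 8.66. The exception was SLC12A5, a potassium-chloride cotransporter of mature neurons, which had 37.8 on mix 4, against 39.6, 42.8 and 62.2. It was named because it stood apart from its list. GAP43 and CNTN2 were too dim to be tested.

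Receptors and enzymes of fast transmission followed the same order. Of 17 tested genes for glutamate receptors and transport, 16 lay above all 3 other mixes and 9 at least 4-fold, and of 14 tested genes for GABA and glycine signalling 14 lay above and 5 at least 4-fold, against 24.2% and 2.9% of all genes. Most of the GABA and glycine genes and many of the glutamate genes passed the filter through mix 4 alone, so their place above was fixed. GRM3, SLC17A6, GAD1, GAD2 and SLC32A1 are among them. These counts were thus in large part set by the filter. Over all 22 and 20 genes found, dim ones included, the median log2 difference was 2.11 and 1.39, against -0.07 over all genes tested. GRIA2, an AMPA-type receptor subunit, had 1105 on mix 4, against 1.58, 35.2 and 7.64 on mixes 1, 2 and 3. GRM3, a metabotropic glutamate receptor, had 471 on mix 4, against 1.06, 10.6 and 10.3. SLC17A6, which loads glutamate into vesicles, had 77.4 on mix 4, against 1.37, 7.78 and 1.02. On the inhibitory side stood GAD1 and GAD2, the enzymes that make GABA, and SLC32A1, its vesicle transporter. GAD1 had 793 on mix 4, against 13.1, 25.2 and 8.34. GAD2 had 213 on mix 4, against 22.4, 1.96 and 1.72. SLC32A1 had 472 on mix 4, against 4.6, 12.8 and 10.1. On mixes 1, 2 and 3 none of these 6 genes exceeded 35.2.

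Genes of glia were above the other mixes less evenly. Of 15 tested genes for oligodendrocytes and myelin, 7 lay above all 3 other mixes and 1 below, and of 15 for astrocytes and radial glia 8 lay above and 1 below, against 24.2% and 28.3% of all genes. Among those above, MBP, PTPRZ1 and another gene of each list passed the filter through mix 4 alone, so their place was fixed. OLIG2, a transcription factor of oligodendrocytes, had 344 on mix 4, against 34.4, 33 and 48.5 on mixes 1, 2 and 3. SLC1A3, a glutamate transporter of astrocytes, had 1325 on mix 4, against 44.2, 40.7 and 2.48. GFAP, the intermediate filament of astrocytes, had 235 on mix 4, against 44.7, 33 and 31.9. PTPRZ1 and NCAN, proteins of the matrix around neurons and glia, had 529 and 645 on mix 4, where no other mix exceeded 30.6. Other genes of the myelin list did not follow. MAL, a protein of myelin and of epithelial membranes, had 29.4 on mix 4, against 69.8, 229 and 140, and the probe set of MOG was brightest on mix 3, with 195 on mix 4, against 44.6, 279 and 1615.

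Genes known from the cerebral hemispheres were present together with some known from the cerebellum. NEUROD6, a transcription factor of excitatory forebrain neurons, had 442 on mix 4, against 8.08, 7.85 and 5.79 on mixes 1, 2 and 3. TBR1, another factor of these neurons, had 67.2 on mix 4, against 5.6, 2.28 and 1.27. LMO3, found in forebrain neurons, had 440 on mix 4, against 20.4, 26.8 and 21.3. All 3 were at least 4-fold above each other mix, as was NR2E1, a factor of neural stem cells, with 66.7 on mix 4, against 1.16, 1.2 and 2.17. Of 16 forebrain genes tested, 8 were above all other mixes, 1 below and 4 at least 4-fold above, against 24.2%, 28.3% and 2.9% of all genes. These 4 and another of the 8 passed the filter through mix 4 alone, so their place above was fixed. EMX2 did not follow, with 25.5 on mix 4, against 10.7, 172 and 2.04. Of 12 cerebellar genes tested, 8 were above all other mixes and 5 at least 4-fold, beside the same 24.2% and 2.9%. Among the 5 was PVALB, which fast muscle also uses, and among the 8 was CBLN1, with a margin of only 0.08 over mix 2. The others of the 5, ZIC1 and ZIC2 among them, and a further gene of the 8 passed the filter through mix 4 alone. Their place above was fixed. CALB1 did not follow, with 37.3 on mix 4, against 2143, 374 and 6.11. ZIC1 and ZIC2, factors of cerebellar granule cells and of the dorsal neural tube, had 107 and 168 on mix 4, with 21.2 as their highest value elsewhere. GABRA6, which marks mature cerebellar granule cells, was at background on each mix, with 0.434 on mix 4, against 2.96, 6.14 and 1.34; it was singled out after its values were seen, as the list's most restricted gene.

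Neuropeptides split. NPY, a feeding peptide of the hypothalamus that is also found in the forebrain and in peripheral nerves, had 399 on mix 4, against 28.2, 59.9 and 18.1 on mixes 1, 2 and 3. CRH, the peptide that starts the stress response, had 35.2 on mix 4, against 4.65, 5.5 and 5.09. AVP, in birds the gene of vasotocin, had 86.9 on mix 4, against 25, 3.1 and 2.8. NTS and TAC1, peptides that work in the gut and its nerves as well, had their next highest signal on mix 1. NTS had 498 on mix 4, against 311, 10.9 and 0.382, and TAC1 had 513 on mix 4, against 161, 52.5 and 8.02. POMC had 1.4 and AGRP 18.7 on mix 4, neither of them bright enough on any mix to be tested. The pituitary hormones GH, PRL and TSHB had 9.25, 8.96 and 16.2 on mix 4 and no more than 22 on any mix. Of 15 peptide genes tested 8 lay above all 3 other mixes and 0 below, against 24.2% and 28.3% of all genes. Among the 8, CRH and AVP passed the filter through mix 4 alone, so their place above was fixed. Over the 24 found, 9 of them too dim to be tested, the median log2 difference was -0.13, and it turned to 0.10 with the deposited scaling and 0.12 with the spiked-in controls. Of 12 tested genes each for retina, lens and pineal and for monoamine and cholinergic neurons, 4 lay above in both lists, while 4 and 3 lay below, near the 24.2% and 28.3% of all genes. TH, the enzyme that makes dopamine, had 2.89 on mix 4, against 16.2, 14.7 and 3.57, and DBH, which turns it into noradrenaline, had 2.8, against 16.5, 3.16 and 2.93. Both were too dim on every mix to be tested. SLC6A2, the noradrenaline transporter, had 336 on mix 4, against 40, 313 and 87.1.

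**Figure D3:**
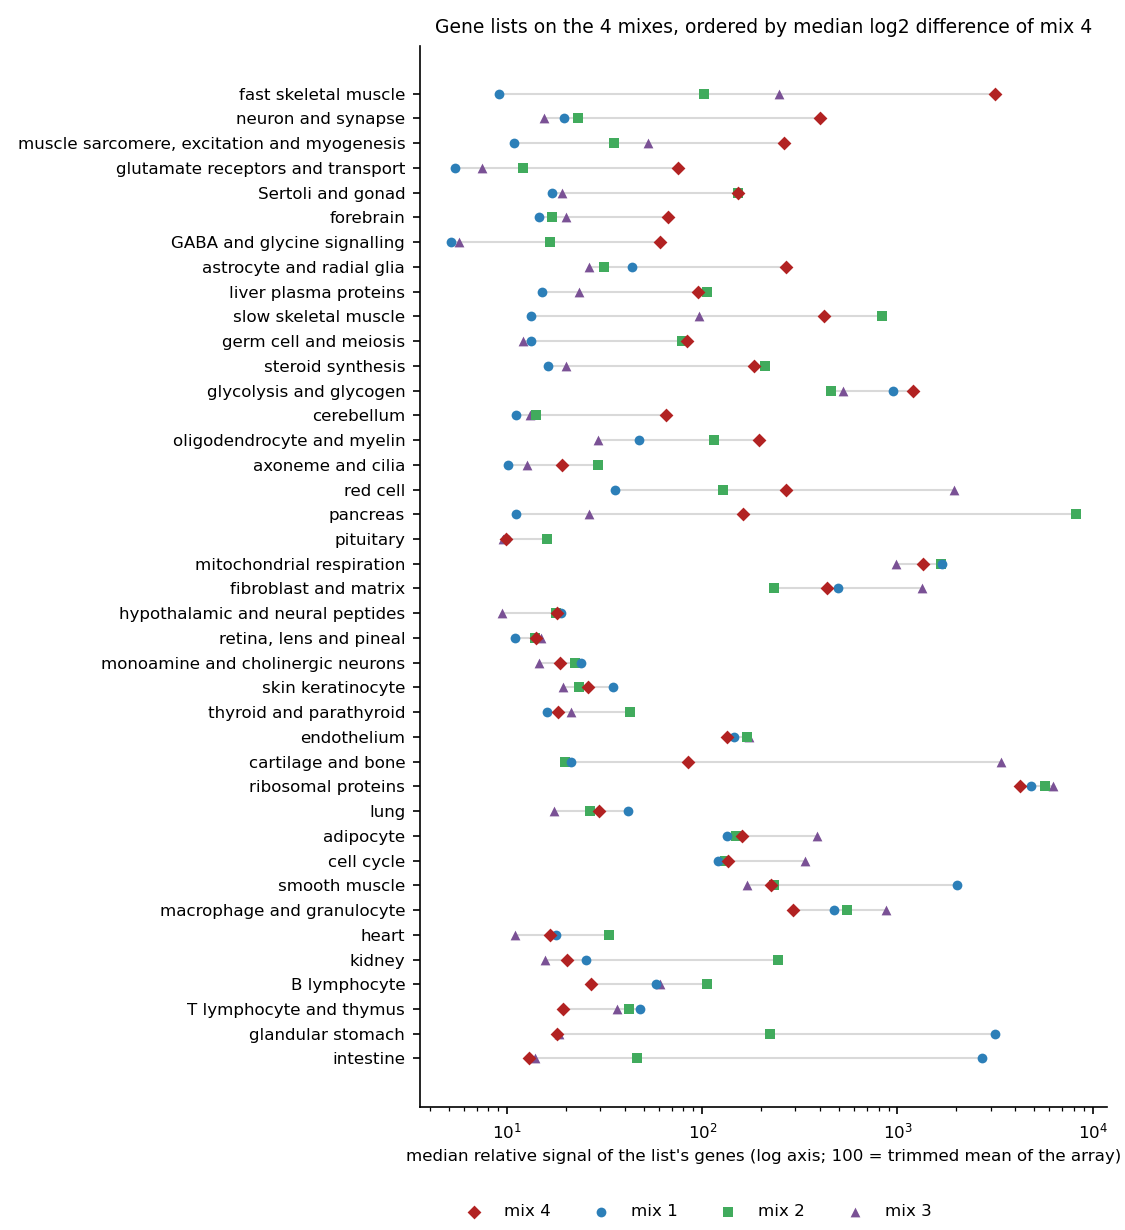
Median relative signal (log axis; 100 is the trimmed mean of the array) of the found genes of each of 40 lists on mix 4 (diamonds), mix 1 (circles), mix 2 (squares) and mix 3 (triangles), ordered by the median log2 difference of mix 4 from the other mixes. Fast skeletal muscle (3154 on mix 4) and neuron and synapse (402) head the order and intestine (12.9) closes it; the Sertoli, germ cell and steroid lists lie close together on mix 4 and mix 2.

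Muscle was the other large group. Fast skeletal muscle fibres use their own forms of myosin, troponin and metabolic enzymes, and the breast muscle of chickens is almost wholly of this type. Of 14 genes found of that list 13 were tested, 13 lay above all 3 other mixes and 12 at least 4-fold, against 24.2% and 2.9% of all genes. Their median relative signal was 3154 on mix 4, against 9.09, 102 and 247 on mixes 1, 2 and 3, and 17.2 in adipose tissue and 4.85 in liver. The median log2 difference was 4.39, between 4.01 and 4.79 over the other settings, and between 3.46 and 5.18 when mix 1, 2 or 3 was left out.

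MYL1, a light chain of fast myosin, was the brightest of them with 6062 on mix 4, against 13.3, 373 and 1010 on mixes 1, 2 and 3. TNNT3, the fast troponin T, had 5550 on mix 4, against 36.2, 454 and 1299. MYH1E, a fast myosin heavy chain, had 4870 on mix 4, against 0.317, 105 and 435. In each of the 3 the order was mix 4, mix 3, mix 2 and then mix 1. TNNI2, the fast troponin I, had 4591 on mix 4, against 8.03, 209 and 386, and MYLPF, the regulatory light chain, had 3264, against 16.2, 43.7 and 163. Because mixes 2 and 3 also held some of this signal, the spread among pools was wide: MYH1E differed by 6.01 ± 2.26 on the log2 scale (SE; limma adjusted p = 0.658). Chicken fast myosin heavy chain genes are near-identical neighbours, so probe sets of MYH1B, MYH1C and MYH1E may each pick up the others, and the share of each is uncertain. PVALB, a calcium buffer of fast fibres that is also found in inhibitory neurons, had 484 on mix 4, against 8.13, 42.7 and 22.9, so its signal here belongs to both lists.

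Other genes of striated muscle, among them some that the heart does not use, stood above as well. Of 33 tested genes for the sarcomere, excitation and muscle development, 29 lay above all 3 other mixes, 1 below and 14 at least 4-fold above, against 24.2%, 28.3% and 2.9% of all genes. ACTA1, the skeletal muscle actin, was the brightest named gene on mix 4, with 7600, against 493, 1849 and 3192 on mixes 1, 2 and 3. NEB, the ruler of the thin filament, had 791 on mix 4, against 0.951, 30.2 and 71.4. MYOD1, a master regulator of the skeletal muscle lineage that the heart does not use, had 263 on mix 4, against 1.11, 4.3 and 22.9. It passed the filter through mix 4 alone, so its place above was fixed. CKMT2, the mitochondrial creatine kinase of muscle, had 1476 on mix 4, against 1.32, 222 and 82.2. DES, which striated and smooth muscle share, was instead highest on mix 1, with 407 on mix 4, against 2495, 233 and 63.6. A further 3 genes of muscle stood among the 325 outside every list and were chosen after their values were seen. ANKRD1, a stress-responsive protein of the sarcomere, had 1751 on mix 4, against 1.95, 96.4 and 66.2. RPL3L, the form of a ribosomal protein that striated muscle uses, had 1182 on mix 4, against 9.98, 31.8 and 81.8. FBP2, the muscle form of fructose bisphosphatase, had 915 on mix 4, against 4.6, 39.1 and 75.2.

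Slow muscle genes, several of which the heart uses as well, were divided between mix 4 and mix 2. MYH7B, a slow tonic myosin heavy chain, had 983 on mix 4, against 2.01, 72.4 and 103 on mixes 1, 2 and 3. CASQ2, the calcium store of slow and cardiac sarcoplasmic reticulum, had 922 on mix 4, against 11.6, 146 and 96.9. TNNI1, the slow troponin I, had 361 on mix 4, against 13.3, 93.4 and 22.5. These 3 were highest on mix 4, and so were a pair that heart muscle also uses. TNNC1, the troponin C of slow and cardiac muscle, had 4674 on mix 4, against 23.8, 2907 and 643. ATP2A2, the calcium pump of the same fibres, had 1549 on mix 4, against 249, 838 and 184. Others were highest on mix 2: MYL2, the light chain of slow fibres and the ventricle, had 60.7 on mix 4, against 10.2, 3121 and 8.6. MYL3, a light chain of slow fibres and ventricle, had 982 on mix 4, against 0.423, 2485 and 96.2. Of 16 slow muscle genes tested 7 lay above all 3 other mixes, 2 below and 2 at least 4-fold above, against 24.2%, 28.3% and 2.9% of all genes, and the list's median signal was 421 on mix 4, against 13.3, 838 and 96.2.

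Of 11 heart genes tested 2 lay above all 3 other mixes and 4 below, against 24.2% and 28.3% of all genes, and the list's median signal was 16.6 on mix 4, against 17.7, 33.3 and 11 on mixes 1, 2 and 3. NPPA, the atrial natriuretic peptide, had 15.2 on mix 4, against 11.6, 3203 and 17.2. MYH15, the ventricular myosin heavy chain of birds, had 17.5 on mix 4, against 13.2, 1987 and 10.5. NKX2-5, a transcription factor of the heart, had 1.49 on mix 4, against 17.7, 113 and 2.17. All 3 were under 27.8 on mix 4. The 2 genes above all 3 other mixes were MYL4 and RYR2, while 7 of the 11 were highest on mix 2. MYL4, a light chain of the atrium, had 219 on mix 4, against 32.7, 33.3 and 32.7, and 579 in liver. RYR2, the calcium release channel of heart and brain, had 57.7 on mix 4, against 18.7, 29.9 and 11. ACTC1, the cardiac actin that developing skeletal muscle also makes, had 770 on mix 4, against 75.7, 3644 and 62.2, at 0.211 of its level on mix 2. Smooth muscle genes did not stand above either: 0 of 12 tested lay above all 3 other mixes and 3 lay below, against 24.2% and 28.3% of all genes. MYH11, the smooth muscle myosin, had 316 on mix 4, against 5156, 515 and 180, and ACTG2, the actin of gut muscle, had 221, against 8385, 280 and 116.

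**Figure D4:**
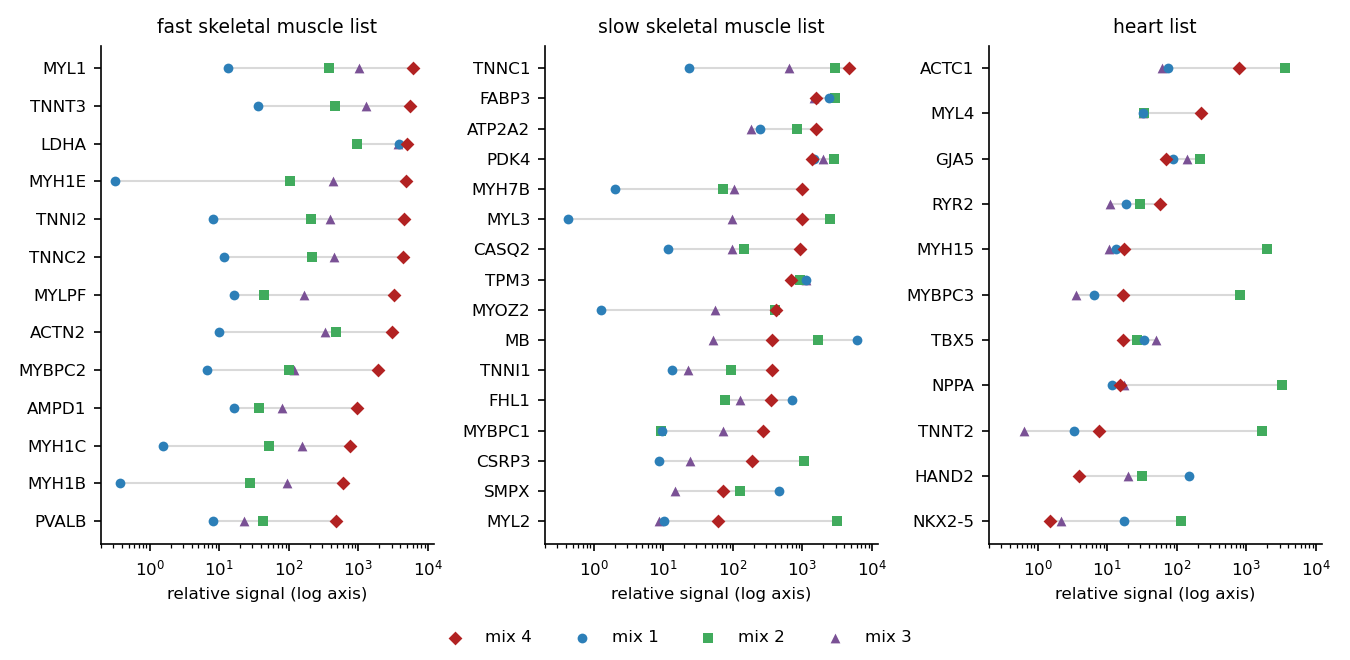
Relative signal (log axis) of the tested genes of the fast skeletal muscle, slow skeletal muscle and heart lists, 1 row a gene in order of its signal on mix 4, with mix 4 as diamonds, mix 1 as circles, mix 2 as squares and mix 3 as triangles. All 13 fast genes are highest on mix 4, while NPPA, MYH15, TNNT2 and MYBPC3 are under 27.8 there and at 797 or more on mix 2.

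Glycolysis, the pathway that feeds both fast fibres and neurons, was above all 3 other mixes for 13 of 21 tested genes and below for 3, against 24.2% and 28.3% of all genes. PFKM, the muscle form of phosphofructokinase, had 2928 on mix 4, against 26, 263 and 276 on mixes 1, 2 and 3. ENO2, the enolase of neurons, had 1028 on mix 4, against 26, 20.8 and 105. These 2 were the members of the list at least 4-fold above the other mixes. GPI, an enzyme that nearly every cell uses, had 3739 on mix 4, against 1308, 1679 and 1596. The list's median log2 difference was 0.96, against -0.07 over all genes, and did not turn in any setting.

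Another set of genes was about as bright on mix 4 as on mix 2, and far dimmer on mixes 1 and 3, so that the comparison with all 3 other mixes did not bring it out. Genes known from the testis were among them. The testis holds Sertoli cells, which nurse the germ cells, Leydig cells, which make testosterone, and the germ line itself. DMRT1, the male sex-determining factor of birds, had 1908 on mix 4, against 2.17, 2001 and 13.7 on mixes 1, 2 and 3. AMH, a hormone of Sertoli cells, had 4284 on mix 4, against 19, 5752 and 6.94, although its probe sets disagree, since of 3 tested 1 lay above and 1 below the other mixes. CYP17A1, the enzyme that commits steroids to androgens, had 2749 on mix 4, against 3.86, 3868 and 5.79. The germ cell genes DAZL and DDX4, which bind RNA in the germ line, had 497 and 319 on mix 4, 453 and 325 on mix 2 and no more than 19.9 on mixes 1 and 3. SYCP1, a protein that pairs chromosomes in meiosis, was at 3.61 on mix 4 and at 11.8 at most elsewhere.

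To count this pattern, which was defined after the values were seen, genes were taken for which mix 4 and 1 other mix were both at least 4-fold above the remaining 2. There were 144 such genes for mix 2 (1.28% of genes tested), 48 for mix 3 (0.428%) and 11 for mix 1 (0.098%). With mix 2 they included 12 of 21 tested germ cell genes, 8 of 14 tested Sertoli and gonad genes and 8 of 16 tested genes of steroid synthesis, with NR5A1 and INHA standing in the last 2 lists. Each of these lay within 1.5-fold of its mix 2 value, and the median ratio of mix 4 to mix 2 was 1.03 for the germ cell genes, 0.911 for the Sertoli and gonad genes and 0.898 for the steroid genes. Among all 144 genes 85 lay within 1.5-fold, so close values are common in that set. Of genes used by the adrenal gland, CYP21A1, needed for corticosterone, had 15.9 on mix 4, against 7.66, 6.26 and 27.5, and MC2R, the receptor for the hormone that drives the adrenal, had 13.5, against 21, 18.3 and 22.5. Both were singled out after their values were seen.

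Other genes were shared with mix 2 at nearly the same level. GPR37, a receptor of oligodendrocytes and other brain cells, had 329 on mix 4, against 5.33, 298 and 8.28 on mixes 1, 2 and 3. CBLN1, a protein that organises cerebellar synapses, had 296 on mix 4, against 26.1, 279 and 18.4. TPH2, the enzyme that makes serotonin in neurons, had 76 on mix 4, against 0.792, 59.4 and 2.04. These 3 are listed for the nervous system and yet did not follow the synaptic genes, whose median on mix 2 was 23.1. The surfactant proteins SFTPA1 and SFTPA2 had 227 and 203 on mix 4, 210 and 196 on mix 2, and at most 15.2 on mixes 1 and 3, with 1087 and 982 in adipose tissue, where the same genes were brighter than on any mix.

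**Figure D5:**
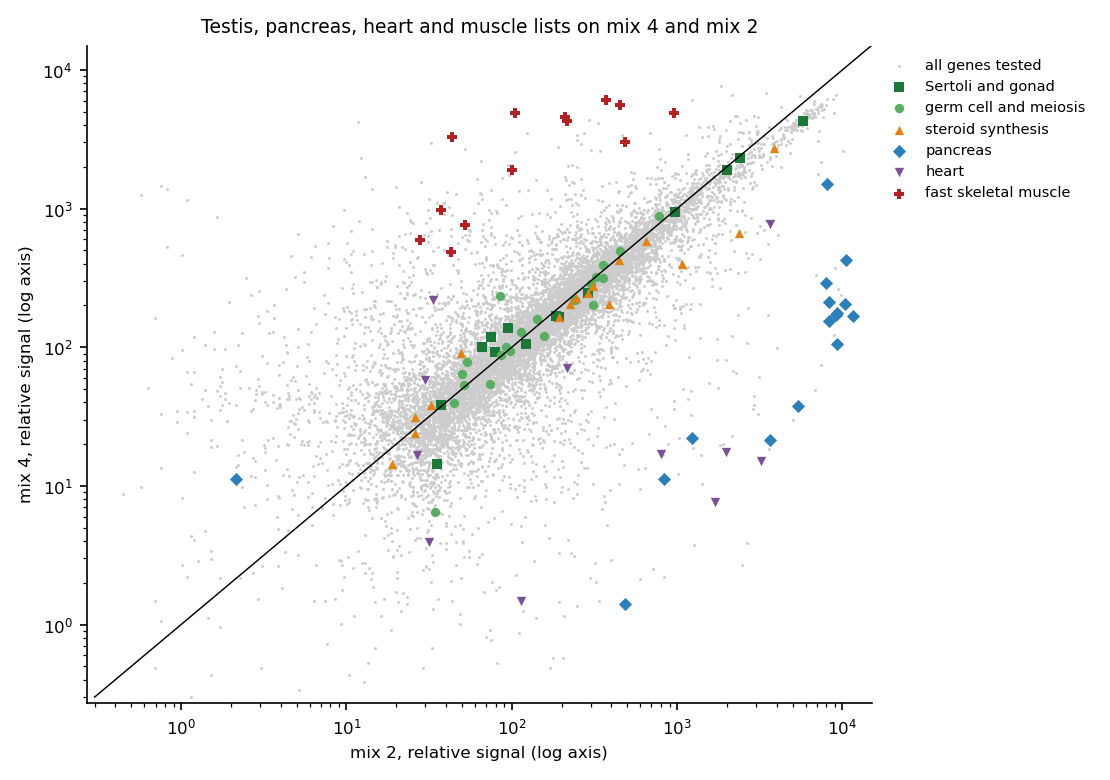
Relative signal on mix 4 (vertical, log axis) against mix 2 (horizontal, log axis) of 11221 genes tested (grey) and of the tested genes of 6 lists (coloured), with a line at equal signal. The Sertoli, germ cell and steroid genes follow the line, the pancreas and most heart genes lie below it and the fast muscle genes above it.

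Pancreatic enzymes were on mix 4 at a small share of their level on mix 2. CPA1, a carboxypeptidase of pancreatic juice, had 167 on mix 4, against 8.77, 11573 and 15.6 on mixes 1, 2 and 3. PRSS2, a trypsinogen, had 423 on mix 4, against 7.82, 10532 and 40.2. CELA1, an elastase, had 154 on mix 4, against 6.71, 8329 and 17.6. For 10 of 16 tested genes of the list mix 4 and mix 2 were both at least 4-fold above the other 2 mixes, against 1.28% of all genes. The median ratio of mix 4 to mix 2 for these 10 genes was 0.0193. The hormones of the islets did not share this: GCG, the glucagon gene, had 11.3 on mix 4, against 265, 832 and 31.3.

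Plasma proteins of the liver were, as a list, far dimmer on mixes 4 and 2 than in liver. ALB, serum albumin, had 2264 on mix 4, against 88.7, 1167 and 201 on mixes 1, 2 and 3, and 12910 in liver. FGB, a chain of fibrinogen, had 442 on mix 4, against 16.6, 2694 and 27.3, and 12413 in liver. TTR, a carrier of thyroid hormone that the choroid plexus of the brain makes as well, had 315 on mix 4, against 124, 119 and 111, and 9225 in liver. Of 21 tested genes 12 lay above all 3 other mixes and 0 below, against 24.2% and 28.3% of all genes. The list's median signal was 95.5 on mix 4, against 15.1, 106 and 23.2 on mixes 1, 2 and 3 and 9557 in liver. For 7 of the 21 mix 4 and mix 2 were both at least 4-fold above the other 2 mixes, against 1.28% of all genes. Of these 7, 6 were higher on mix 4, and the median ratio of mix 4 to mix 2 was 1.29.

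Some bone and red cell genes were high on mixes 4 and 3 instead. IBSP, a protein of mineralised matrix, had 869 on mix 4, against 3.17, 1.65 and 2593 on mixes 1, 2 and 3. BGLAP, the osteocalcin gene, had 1679 on mix 4, against 38.8, 12.9 and 4385. COL10A1, a collagen of growth plate cartilage that turns to bone, had 1256 on mix 4, against 0.687, 0.569 and 5426. With COL11A1 these were the 4 of 19 tested cartilage and bone genes that mixes 4 and 3 shared, against 0.428% of all genes. Their median ratio of mix 4 to mix 3 was 0.283, and they were named after that count was made. MATN1, which marks cartilage itself, was at background on mix 4 with 8.24, against 7.92, 7.47 and 3596. Among the genes of red cells HBAD, an alpha-type globin, had 6051 on mix 4, against 482, 1227 and 9128, and HBE, a beta-type globin, had 269, against 28.5, 62.8 and 476. HBA1, another alpha-type globin, was bright on mix 2 as well, with 6453 on mix 4, against 2151, 5572 and 7112. Of 13 tested red cell genes 2 were shared by mixes 4 and 3, HBAD among them, against 0.428% of all genes. The 13 red cell genes had a median of 269 on mix 4, against 35.5, 128 and 1943, so mix 4 came after mix 3 in this list, and each of the 13 lay inside the range of the other mixes.

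On the low side the widest gap was in a gene of antibody-secreting cells. JCHAIN, which joins the units of secreted IgA and IgM, had 432 on mix 4, against 3025, 3188 and 3385 on mixes 1, 2 and 3. Its log2 difference was -2.86 ± 0.26 (SE; limma adjusted p = 0.18), and adipose tissue (717) and liver (145) were low as well. IRF4, a factor of plasma cells and activated lymphocytes, had 21.8 on mix 4, against 142, 145 and 113. IGLL1, an immunoglobulin lambda-like gene as the platform names it, had 1766 on mix 4, against 5796, 7161 and 6400. All 3 differed far less among mixes 1 to 3 than from mix 4, and 6 of 6 tested probe sets of IGLL1 lay below them. Of 15 tested B lymphocyte genes 11 lay below all 3 other mixes, 0 above and 2 at least 4-fold below, against 28.3%, 24.2% and 0.134% of all genes.

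T cells followed. CD3E, a chain of the T cell receptor complex, had 156 on mix 4, against 1426, 967 and 615 on mixes 1, 2 and 3. TARP, read from the locus of the T cell receptor gamma chain, had 150 on mix 4, against 1043, 674 and 840. GZMA, a protease of cytotoxic cells, had 44.6 on mix 4, against 3350, 340 and 183. BTLA, which restrains lymphocytes, had 30.4 on mix 4, against 153, 203 and 198, and PTPN7, a phosphatase of blood cells, had 15.7, against 106, 100 and 134. All 5 were lowest on mix 4, but GZMA, TARP, BTLA and PTPN7 were named for their margin, which fixed this. TARP, BTLA and PTPN7 stand outside the T cell list. Of 16 tested T cell and thymus genes 15 lay below all 3 other mixes, against 28.3% of all genes. The other gene was SATB1, which thymocytes share with neurons, with 81.7 on mix 4, against 13.6, 21.9 and 18.9. RAG1, the recombinase that marks the thymus and the bursa, was too dim to be tested, with 5.16 on mix 4, against 10.3, 10.5 and 5.73.

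The macrophage and granulocyte list had 11 of 16 tested genes below all 3 other mixes and 0 above, against 28.3% and 24.2% of all genes. PTPRC, the common antigen of white blood cells, had 201 on mix 4, against 646, 625 and 868 on mixes 1, 2 and 3. CTSS, a protease of antigen-presenting cells, had 565 on mix 4, against 2403, 1694 and 1648. C1QA, a part of complement that macrophages make, had 276 on mix 4, against 559, 808 and 771. These 3 were lowest on mix 4, whereas CSF1R, the growth factor receptor of macrophages, had 652 on mix 4, against 430, 665 and 1423, inside the range of the others. CD74, which guides peptides onto class II molecules, was bright everywhere, with 4890 on mix 4, against 8906, 8893 and 8993.

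The other wide gaps on the low side belonged to genes of several kinds. TSPAN8, a membrane protein of digestive epithelia, had 7.66 on mix 4, against 2240, 180 and 83.8 on mixes 1, 2 and 3. SLC9A3R1, a scaffold beneath the brush border, had 54.3 on mix 4, against 715, 389 and 274. FOXA2, a factor of organs that come from the endoderm, had 13.7 on mix 4, against 139, 86.4 and 93.7. FBP1, the liver and kidney form of fructose bisphosphatase, had 171 on mix 4, against 1370, 3523 and 769, the converse of FBP2. B3GNT7, an enzyme that extends sugar chains, had 0.819 on mix 4, against 136, 69.7 and 30.8. FGFR4, a growth factor receptor, had 5.49 on mix 4, against 63.3, 71.9 and 56.4. BCL2L15, P2RX7 and TINAGL1 had 19.2, 16 and 11.2 on mix 4 and at least 70.6 on each other mix, and TINAGL1 had 172 in adipose tissue. A further gene among the 15, known by a locus number only, is counted and not named. TINAGL1 was just inside the 4-fold rule with a margin of 2.007, and GKN2, a protein of stomach mucus, just outside with 1.986 (17.2 on mix 4, against 6406, 265 and 93.1).

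The medians of the organ lists for the digestive tract and the kidney were under 27.8 on mix 4. The 24 genes found for the intestine had a median of 12.9 on mix 4, against 2720, 46.3 and 13.9 on mixes 1, 2 and 3, and 0 of 23 tested lay above all others while 14 lay below, against 24.2% and 28.3% of all genes. RBP2, a retinol carrier of the gut lining, had 1.16 on mix 4, against 3809, 16.1 and 18.3. The 9 genes found for the glandular stomach had a median of 18 on mix 4, against 3154, 223 and 18.5, and PGC, a pepsinogen, had 18 on mix 4, against 8476, 252 and 15.2. The kidney list had a median of 20.2 on mix 4, against 25.4, 245 and 15.7, and SLC34A1, a phosphate transporter of the kidney tubule, had 98.2, against 112, 4037 and 94.1. The medians of these 3 lists were about level on mix 4 and mix 3, although the 14 intestine genes, RBP2 among them, lay below mix 3 too. The difference from the other mixes shrank when the mix with the highest signal was left out. Without mix 1 the median log2 difference was -0.88 for the intestine in place of -2.71 and -1.18 for the stomach in place of -2.52. Without mix 2 it was -0.03 for the kidney in place of -1.01.

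Vessels, connective tissue and fat are part of most organs. The endothelium list had a median of 134 on mix 4, against 146, 170 and 174 on mixes 1, 2 and 3, with 7 of 17 tested genes below and 0 above, against 28.3% and 24.2% of all genes. CDH5, the cadherin of endothelial junctions, had 305 on mix 4, against 471, 333 and 506. The fibroblast and matrix list had a median of 437 on mix 4, against 495, 233 and 1331. In that list COL1A1, the main chain of type I collagen, had 6818 on mix 4, against 6410, 3474 and 9481, and 4 of 26 tested genes lay below, 1 above. The adipocyte list had a median of 160 on mix 4, against 134, 148 and 386, with 7 of 16 tested genes below and 1 above, and PLIN1, the coat protein of fat droplets, at 160 on mix 4, against 59.4, 74.3 and 409, and 5384 in adipose tissue. Of the remaining lists, 7 of 13 tested genes for the axoneme and cilia lay above all 3 other mixes and 0 below, for lung 3 of 10 above and 5 below, for skin 2 of 12 above and 2 below, for thyroid and parathyroid 0 of 6 above and 1 below, and for the pituitary 0 of 3 above and 1 below, beside 24.2% above and 28.3% below over all genes.

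In the lists of genes that all or all dividing cells use, most ribosomal protein genes were lowest on mix 4. Of 46 ribosomal protein genes 44 lay below all 3 other mixes, against 28.3% of all genes, with a median log2 difference of -0.41, which became 0.03 with quantile normalization, so its direction depends on the scaling. RPS2, a protein of the small subunit, had 5560 on mix 4, against 7263, 7302 and 8557. Of 30 cell cycle genes 13 lay below and 1 above, against 28.3% and 24.2% of all genes; TOP2A, which untangles DNA in dividing cells, had 125 on mix 4, against 154, 167 and 348. The mitochondrial list held 8 genes above and 3 below of 38 tested, against the same 24.2% and 28.3%, with a median difference of -0.04 that turned to 0.27 with the deposited scaling, 0.15 with quantile normalization and 0.30 with the spiked-in controls.

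Matched by gene symbol, the lists covered few of the genes that set mix 4 apart. By that match 82 of the 325 stood in a list and 243 in none. Of the 648 probe sets 149 had no name of their own. Of those in no list the 7 with the widest gaps are described above, and 3 more were chosen after their values were seen. SNCB, a synuclein of nerve endings, had 1438 on mix 4, against 24.5, 19.9 and 45.8 on mixes 1, 2 and 3. PRKCB, a form of protein kinase C, had 1640 on mix 4, against 49.2, 61.5 and 55.1. ARC, which neurons make after activity, had 392 on mix 4, against 1.11, 10.4 and 9.23. For the 325 genes the next highest mix was mix 2 in 145, mix 3 in 108 and mix 1 in 72. Over the 24118 probe sets tested, the log2 signal of mix 4 correlated with that of mix 2 at r = 0.793, of mix 3 at 0.770, of adipose tissue at 0.758, of mix 1 at 0.691 and of liver at 0.669, across probe sets of single arrays that share every gene used in common. The tissues best known for the genes brightest on mix 4 relative to the other mixes are brain and fast skeletal muscle, with testis shared with mix 2; the labels name none of these, and whether they were pooled was not tested.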

How the data were processed

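Total RNA of pooled or single chicken tissues was labelled with biotin and hybridised to 1-colour Affymetrix arrays, per the labels' protocols. The authors deposited 1 intensity per probe set and array on a linear scale, made with MAS5 per the submitters' processing notes; the sources used here give neither its version nor its settings. Groups were taken from the sample titles, since another label names adipose tissue for all 6 arrays.

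From these values 96 control probe sets were left out of 38535. Each array was divided by its 2% trimmed mean and multiplied by 100, which sets the arrays level and hides any difference in total RNA. The deposited trimmed means ran from 116 (liver) to 207 (mix 4). Values were tested as log2(relative signal + 8.41), so differences of dim genes are understated. Mix 4 was compared with mixes 1 to 3 by limma 3.58.1 in R 4.3.3, with a trend in the prior, 2 residual and 2.42 prior degrees of freedom, and Benjamini-Hochberg adjustment over all 24118 probe sets tested; the code was tested on simulated data. One array per mix limits the precision, and the labels name no separate birds as replicates.

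Of the probe sets 27168 had 1 gene symbol, 177 several and 11094 no listed gene in the platform's annotation. Genes were named as the 15 widest margins above and below, symbols that are only a locus number counted but not named, the first 3 genes found of each list and up to 6 more of a list by margin. The members, the 40 lists and the rule were chosen with earlier results of these data known. Named outside the rule, after their values were seen, were also MYL1, MYH1B, MYH1C, MYL3, TNNT2, MYBPC3, ACTC1, COL11A1, INHA, NR5A1, SLC12A5, GAP43, CNTN2, GABRA6 and RAG1. Other scalings, pseudocounts and filters, other probe sets of a gene, and each mix left out were tried.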

Additional observations from a re-analysis of the deposited data

How the results depend on the processing

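No paired analysis was made because the labels pair mix 4 with none of mixes 1 to 3. Where a value moved, the cause was not tested. Probe sets at least 4-fold below numbered 5 with the deposited scaling, 4 with the spiked-in controls, 6 with the pooled median as pseudocount, 87 with the 10th percentile and 0 with adipose tissue and liver added, against 23. Those at least 4-fold above numbered 418 with the pooled median as pseudocount, against 648. Those below all others numbered 3325 (deposited scaling), 3188 (spiked-in controls), 4137 (adipose tissue and liver added), 11804 (no filter) and 3759 (filter at the 75th percentile); those above all others numbered 9358, 9739 and, with that filter, 3270. limma called 1053 with the floor. Leaving out 1 of mixes 1 to 3 gave 748 to 1086 at least 4-fold above, 36 to 289 at least 4-fold below, 6443 to 7798 above, 8583 to 8831 below and 0 to 0 by limma. Genes shared with mixes 1, 2 and 3 numbered 7, 82 and 31 with the pooled median as pseudocount.

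List medians turned sign with the deposited scaling and the spiked-in controls for neural peptides (0.10 and 0.12; 0.06 with all probe sets averaged), monoamine neurons (0.03 and 0.04), fibroblast and matrix (0.18 and 0.20), skin (0.07 and 0.09) and mitochondria (0.27 and 0.30; 0.15 with quantile normalization). Ribosomal proteins turned to 0.03 with quantile normalization. With the pooled median as pseudocount the pituitary list turned to -0.00 and the pancreas list to -0.40, and to -0.29 with the floor. With 1 mix left out the medians ran from -0.24 to 0.16 for neural peptides, -0.44 to 0.18 for fibroblast and matrix, -0.28 to 0.09 for mitochondria, -0.08 to 0.15 for the pituitary, -1.60 to 2.91 for the pancreas, -1.41 to 0.07 for smooth muscle, -0.51 to 2.06 for red cells, -0.90 to 0.36 for the heart and -1.37 to 1.29 for cartilage and bone.

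Of 157 named genes 24 turned sign in a scaling, pseudocount, filter or with a mix left out. With the deposited scaling and the spiked-in controls these were AGRP (0.11 and 0.12), CSF1R (0.12 and 0.15), GH (0.01 and 0.02), SYCP1 (0.09 in both, 0.02 with quantile normalization and 0.14 with the 10th percentile) and, with the controls, SLC12A5 (0.01). With the pooled median as pseudocount and with the floor they were CELA1 (-0.38 and -0.28), CPA1 (-0.44 and -0.31) and EMX2 (-0.20 and -0.88). With 1 mix left out the differences ran from -2.76 to 0.28 for ACTG2, -0.37 to 0.06 for AGRP, -1.52 to 3.03 for CELA1, -0.22 to 3.09 for COL11A1, -0.19 to 0.53 for COL1A1, -1.58 to 3.11 for CPA1, -0.57 to 0.28 for CSF1R, -0.90 to 1.66 for DES, -0.79 to 1.26 for EMX2, -3.86 to 0.05 for MATN1, -1.75 to 0.72 for MOG, -2.11 to 0.93 for MYBPC3, -2.34 to 0.05 for MYH11, -3.0 to 0.36 for MYH15, -1.80 to 1.96 for MYL2, -3.60 to 0.06 for NPPA, -0.14 to 1.17 for PLIN1, -0.31 to 0.02 for POMC, -0.73 to 3.94 for PRSS2, -0.24 to 0.34 for SYCP1, -3.13 to 0.65 for TNNT2 and -0.07 to 0.27 for TSHB. Another probe set of the gene had the opposite sign for AMH (-0.91), ANKRD1 (-0.30), ATP2A2 (-0.45), CYP21A1 (-0.07), DES (-0.35), DMRT1 (-0.45), HBAD (-0.46), IGLL1 (0.26), NEB (-0.31), PTPRC (0.38), RAG1 (0.00), SATB1 (-0.03), SLC34A1 (0.04), SYP (-0.14) and TARP (0.18).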
